A study of Mus musculus with 36 samples.

Results

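The mRNAs described here are 200 transcripts of mouse embryonic fibroblasts whose ribosome footprints were lowest, relative to unstressed cells, after 2 h at 500 mOsm, the mildest sorbitol stress in the series. They were chosen by their ribosome profiling (Ribo-seq) values. R is the mean RPKM (footprint reads scaled to coding length and library total) of the 2 footprint libraries of a condition, with an unlisted transcript taken as 0. A transcript was eligible with R of at least 10 in unstressed cells and a listing in at least 1 of the 4 footprint libraries made at 700 mOsm without recovery. Of 11037 transcripts listed in any footprint library, 6551 had a baseline of at least 10 RPKM, 6058 of these were eligible, and the 200 with the lowest ratio of R at 500 mOsm to R in unstressed cells are the members, ranked 1 to 200 from the lowest ratio up.

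Hyperosmotic medium draws water out of cells, and a strong stress of this kind slows protein synthesis and takes ribosomes off mRNAs. In Ribo-seq, the pieces of mRNA covered by ribosomes are sequenced, so the footprint density of a transcript reflects how many ribosomes sit on it. Cytoplasmic RNA-seq of the same conditions gives the level of the mRNA itself, relative to the other RNAs of the library. Fewer footprints can therefore come with fewer ribosomes on each mRNA copy or with fewer copies, and the RNA libraries measure the copies in relative terms only.

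The cells were C57BL/6J mouse embryonic fibroblasts, and sorbitol added to the medium is the only treatment the labels name. All groups share the strain and the culture medium, and each extract pooled several culture plates. The 9 conditions were Normal Condition (no added sorbitol), 500, 600 and 700 mOsm for 2 h, 700 mOsm for 15 min, and recovery for 15 min or 2 h after either the 15 min (short) or the 2 h (long) stress at 700 mOsm. Each had 2 Ribo-seq and 2 cytoplasmic RNA-seq libraries. Ribo-seq libraries came from the fractions of a sucrose gradient from the 80S peak downwards, and the RNA libraries from the cytoplasmic extract. No label says that a condition's libraries came from separate cultures, so the RNA p-values rest on a spread that may be technical.

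Footprint libraries held 744700 to 9108030 reads, fewest at 700 mOsm, and RNA libraries 6851961 to 55262422 reads. Footprint libraries of the same condition were hardly further apart than counting noise alone would put them (mean chi-square per degree of freedom 1.00 to 1.08 over transcripts with at least 40 reads), so each pair was averaged and counted as 1 sample, and footprint differences carry no test. For the RNA libraries labelled short stress with 2 h recovery and long stress with 15 min recovery, the names of the deposited lists read the other way round, and no RNA comparison below uses them. RPKM, and likewise FPKM for RNA, gives the share of a library and not an amount per cell, so a loss common to all transcripts would not appear. In bulk libraries fewer cells with an mRNA and less of it per cell cannot be told apart. The lists identify transcripts by number only, and no name table at hand pairs these numbers with genes. Members are therefore described by rank and coding length, and neither gene lists nor fibroblast markers could be checked.

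After 2 h at 500 mOsm the members held between 0.0334 and 0.231 of their baseline RPKM, with a median of 0.165, against a median of 1.01 for all eligible transcripts. These values chose the members and are a description. The median member was at 23.7 and 24.1 RPKM in the 2 libraries of unstressed cells and at 4.04 and 3.86 RPKM in those at 500 mOsm. Both stressed libraries were below both unstressed ones for all 200 members, as for 42.1% of eligible transcripts, and all 200 were at least 2-fold lower on the scaled values, as were 13.8% of eligible transcripts. None was higher, against 0.627% of eligible transcripts. Below, background is the share of eligible transcripts, or for RNA of all tested transcripts, that the same rule calls. The members' baseline rested on 93 footprint reads or more over the 2 libraries (median 632.5), and their level at 500 mOsm on 6 or more (median 55.5).

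The limit of the set is not a break in the distribution. The last 5 transcripts inside it had ratios from 0.227 to 0.231 and the first 5 outside from 0.233 to 0.236. The rule run on the replicate 1 libraries alone chose 162 of the members, and on the replicate 2 libraries alone 174. Transcripts chosen on replicate 1 alone had a median ratio of 0.180 there and 0.178 in the replicate 2 libraries, which had no part in that choice. In those libraries 199 of these 200 transcripts were below 0.5 of their baseline. The 2 libraries of a condition count as 1 sample here, so this bears on counting noise only and does not replicate the set.

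Members made up 1.50% and 1.49% of the reads of the 2 unstressed footprint libraries, and 0.237% and 0.232% at 500 mOsm. Their share was smallest at 600 mOsm, with 0.0980% and 0.0969%, and was larger again at 700 mOsm, with 0.432% and 0.443% after 15 min and 0.340% in each library after 2 h. Exact binomial 95% intervals were narrow, at 0.0943% to 0.102% for the first library at 600 mOsm and 0.418% to 0.447% for the first after 15 min at 700 mOsm, and cover counting error only. The 10 members with most reads held 32.1% and 31.8% of all member reads in unstressed cells, but 55.1% and 53.2% after 15 min at 700 mOsm. The median member was at 3.67 and 4.03 RPKM there and at 4.04 and 3.86 RPKM at 500 mOsm, so the medians of those libraries overlapped.

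**Figure D1:**
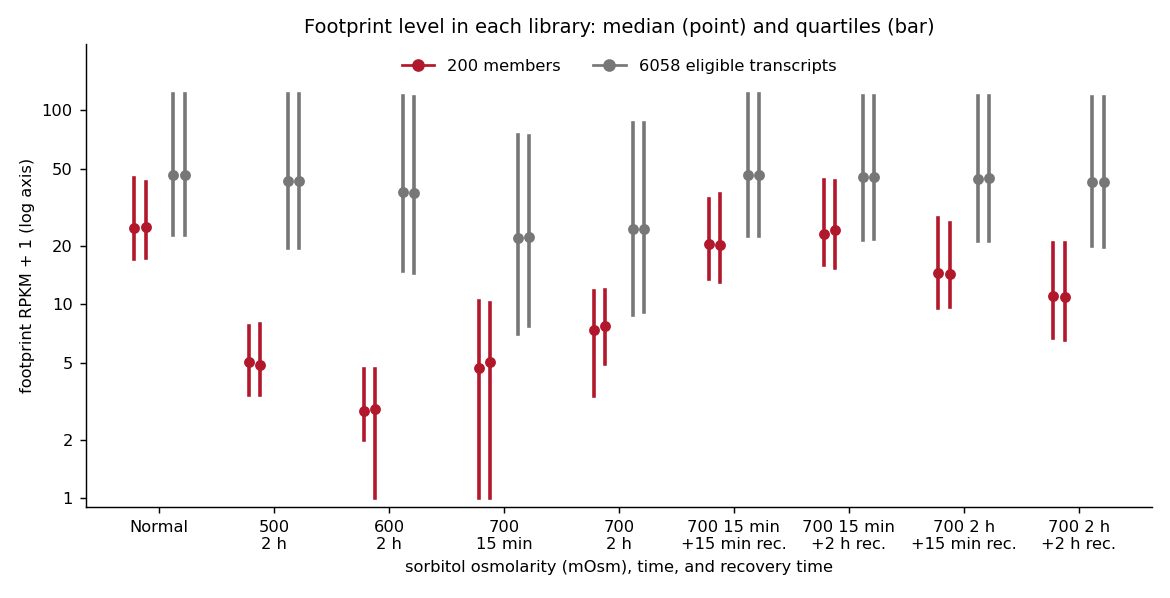
Footprint level (RPKM + 1, log axis) in each of the 18 Ribo-seq libraries, as the median (point) and quartiles (bar) of the 200 members in red and of the 6058 eligible transcripts in grey, with the 2 libraries of a condition side by side. The members' medians were lowest at 600 mOsm (1.82 and 1.90 RPKM) and 2 h into recovery from the long stress stood at 10.1 and 9.97 RPKM, while the eligible transcripts were at 41.6 and 41.9 RPKM there.

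At 600 mOsm all 200 members were at least 2-fold lower than in unstressed cells on scaled values, where 30.3% of eligible transcripts were, and none was higher (background 3.2%). Scaled values are RPKM divided by a library factor set by the median of well-covered transcripts, and changes are on the log2(scaled RPKM + 1) scale, which understates the change of low transcripts. The median change was -3.40 for members and -0.25 for eligible transcripts. This and every other comparison with unstressed cells shares its baseline libraries with the rule. Between 500 and 600 mOsm, 156 members had both 600 mOsm libraries below both 500 mOsm ones (background 50.7%), and 92 were at least 2-fold lower (background 17.6%) against 1 higher (background 0.627%). In neither 600 mOsm library were 25 members listed, which allows any count from 0 to a few reads, since the lists hold hardly any transcript with under 5 footprint reads.

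At 700 mOsm the members were low but less uniformly so. After 15 min, 157 were at least 2-fold lower than in unstressed cells (background 41.2%) and 4 at least 2-fold higher (background 18.8%), with a median change of -2.37 against -0.53 for eligible transcripts. After 2 h, 149 were at least 2-fold lower (background 39.4%) and 1 was higher (background 18.9%), with medians of -1.59 and -0.55. The depth is the limit here, with a median of 5 to 10 reads per member and library. Of the members expected to have at least 100 reads at their baseline level, 55 of 82 were at least 2-fold lower after 15 min and 63 of 70 after 2 h. Under the same limit 1278 of 3395 eligible transcripts were lower after 15 min and 1256 of 3072 after 2 h. Between the times, 95 members were at least 2-fold higher after 2 h than after 15 min (background 22.3%) and 32 lower (background 13.4%). In neither 15 min library were 60 members listed, and in neither 2 h library 8, against 540 and 144 of the 6058 eligible transcripts. Such transcripts were eligible only through a listing at the other time, so the rule set their direction and this contrast is a description. Values at 700 mOsm also depend on the scaling, since the library factors were 0.727 to 0.782 at 700 mOsm and 1.05 to 1.18 elsewhere.

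Footprints of the members were higher after 2 h at 700 mOsm than after 2 h at 600 mOsm. Neither pair of libraries entered the ratio that ranked them, but a listing at 700 mOsm entered eligibility. The median member was at 1.82 and 1.90 RPKM in the 600 mOsm libraries and at 6.38 and 6.71 RPKM in the 700 mOsm ones. On scaled values 168 of 200 were at least 2-fold higher at 700 mOsm, where 17% of eligible transcripts were, and 3 were lower (background 11.3%). The median difference was 1.84 on the log2 scale for members and 0.08 for eligible transcripts, and with RPKM as deposited it was 1.38 and -0.48, with 140 members at least 2-fold higher. Both 700 mOsm libraries stood above both 600 mOsm libraries for 135 members (background 22.7%). Eligibility required a listing at 700 mOsm but asked nothing of 600 mOsm, and the part of that condition in the difference was not tested. Of the 200 members, 101 had their lowest mean RPKM at 600 mOsm, 58 after 15 min at 700 mOsm, 11 after 2 h at 700 mOsm, 9 at 500 mOsm, and 21 tied at 0. These counts were not made over eligible transcripts. The rule used the values at 500 mOsm and the listing at 700 mOsm, so the order describes the members only.

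Members with long and short coding sequences differed after 15 min at 700 mOsm. Background in this paragraph is the share of eligible transcripts of the same length class. All 10 members of up to 200 codons were at least 2-fold lower than in unstressed cells (background 24.2%). So were 50 of 52 from over 200 to 400 (background 46.4%) and 83 of 91 from over 400 to 800 codons (background 55.4%). From over 800 to 1600 codons 14 of 41 were (background 20.9%). Over 1600 codons none of 6 was (background 0%), while 4 of those 6 were at least 2-fold higher. Among eligible transcripts the share was likewise smaller over 800 codons than from over 200 to 800. Across the 200 members Spearman's rho between coding length and change was 0.60 after 15 min, 0.26 at 600 mOsm and 0.14 after 2 h at 700 mOsm, and -0.05, -0.31 and -0.31 over the 6058 eligible transcripts. These are descriptions across transcripts that share the same libraries, and a longer coding sequence holds more reads at a given RPKM. Among eligible transcripts 144 of 153 over 1600 codons (94.1%) were at least 2-fold higher after 15 min.

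The member ranked 38, of 2799 codons, shows that reversal in single libraries. Unstressed cells gave 25.8 and 24.2 RPKM, 500 mOsm 3.05 and 2.45, and 600 mOsm 1.50 and 1.15. At 700 mOsm it was at 69.9 and 79.0 RPKM after 15 min and at 6.56 and 6.73 RPKM after 2 h. Both 15 min libraries lay above both unstressed ones, with 489 and 716 reads, and every other library lay below them. It held 13.6% and 15.0% of all member reads after 15 min at 700 mOsm. The other 3 members higher after 15 min were ranked 25, 174 and 181, had 1895, 1844 and 2619 codons, and lay above baseline in both libraries of that condition.

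**Figure D2:**
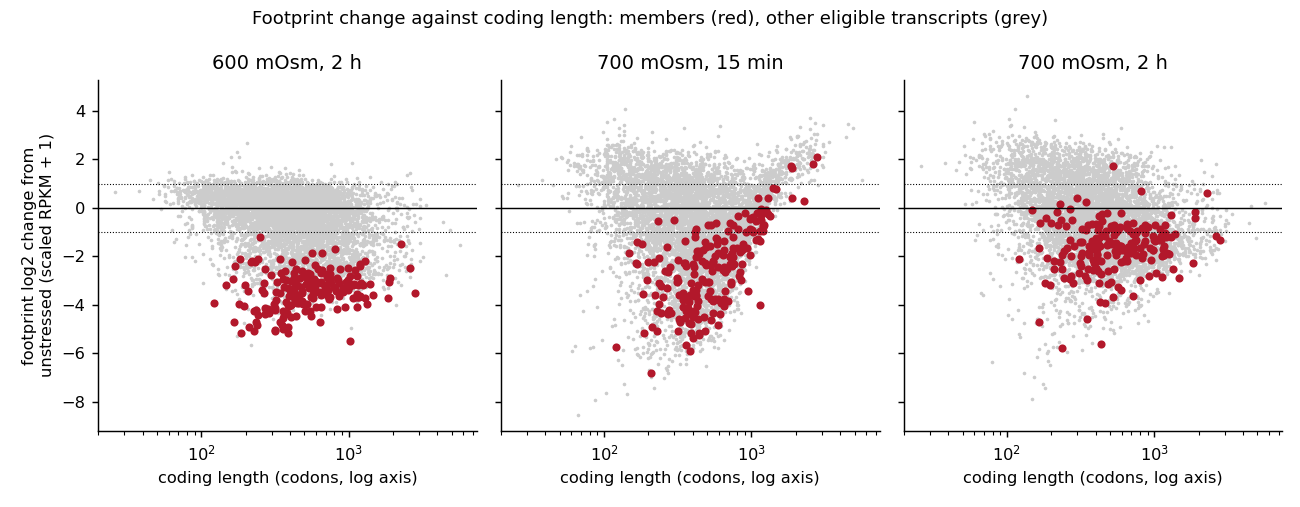
Footprint log2 change from unstressed cells (scaled RPKM + 1) against coding length in codons (log axis) at 600 mOsm for 2 h, 700 mOsm for 15 min and 700 mOsm for 2 h, with members in red, the other eligible transcripts in grey and dotted lines at 2-fold. Members lie below the lower dotted line at every length at 600 mOsm, while after 15 min at 700 mOsm the 6 members over 1600 codons lie above 0.

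Recovery split by the length of the preceding stress. After the short stress the median member was back at 19.5 and 19.2 RPKM within 15 min and at 22.2 and 23.1 RPKM after 2 h. Between 15 min at 700 mOsm and 15 min of recovery, 149 members were at least 2-fold higher (background 40.5%) and 9 lower (background 19.2%), and between both recovery times 6 were higher (background 0.281%) and none lower (background 0.297%). At 15 min 4 members were at least 2-fold lower than in unstressed cells (background 0.264%) and none higher (background 0.396%). At 2 h none was lower (background 0.165%) and 1 was higher (background 0.413%), the member ranked 55. The median changes were -0.39 and -0.08 against -0.04 and -0.02 for eligible transcripts. Without replicate 1 of the unstressed cells the count at 15 min was 2.

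After the long stress the members stayed low. At 15 min of recovery the median member was at 13.5 and 13.3 RPKM and at 2 h at 10.1 and 9.97 RPKM. Against 2 h at 700 mOsm, 78 members were at least 2-fold higher at 15 min of recovery (background 32.8%) and 6 lower (background 16.6%). At 15 min 79 members were at least 2-fold lower than in unstressed cells (background 4.36%) and at 2 h 143 were (background 5.98%), with medians of -0.86 and -1.27 against -0.10 at both times for eligible transcripts. None was at least 2-fold higher at either time (background 1.29% and 2.33%). Between those times 139 members had both 2 h libraries below both 15 min libraries (background 47.7%), and 25 were at least 2-fold lower (background 2.11%) against 5 higher (background 2.91%).

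The contrast between the recoveries uses no library that chose the members. At 2 h, both libraries after the long stress were below both libraries after the short stress for 194 of 200 members (background 48.5%). On scaled values 134 were at least 2-fold lower after the long stress (background 5.45%) and none was higher (background 2.15%), with a median difference of -1.19 for members and -0.08 for eligible transcripts. At 15 min of recovery the same difference was -0.48 against -0.05, with 30 members at least 2-fold lower (background 2.54%) and 1 higher (background 0.792%).

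**Figure D3:**
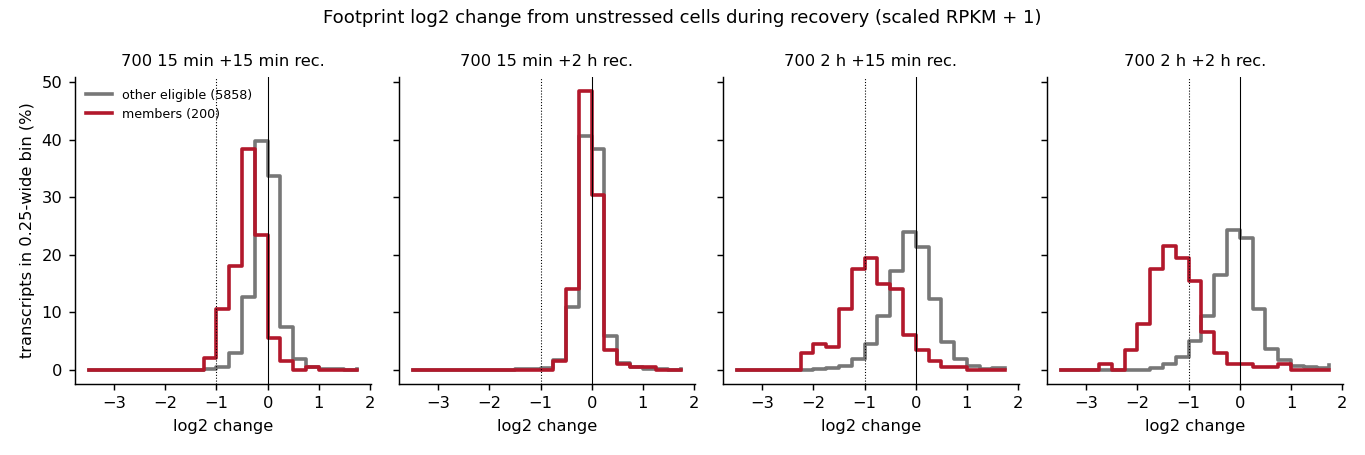
Share of transcripts (%) in bins of footprint log2 change from unstressed cells (scaled RPKM + 1) for the 4 recovery conditions, with the 200 members in red, the 5858 other eligible transcripts in grey, a solid line at no change and a dotted line at 2-fold lower; values beyond the axis are in the end bins. The curves lie together 2 h after the short stress, where the members' median was -0.08, and apart 2 h after the long stress, where it was -1.27.

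Members differed among themselves after the long stress. At 2 h of recovery 20 were still under 0.25 of their unstressed RPKM, 46 were at 0.5 or more, and 6 were at or above it. These limits were not counted over eligible transcripts, so the counts describe the spread among members only. The member ranked 32, of 323 codons and with the highest baseline of all members, started from 1127 and 1132 RPKM in unstressed cells. Stress at 500 mOsm gave 116 and 121 RPKM, and 600 mOsm gave 88.5 and 84.4 RPKM. The 700 mOsm libraries held 59.5 and 67.9 RPKM after 15 min but 297 and 322 RPKM after 2 h. Recovering from the long stress it reached 2085 and 2157 RPKM at 15 min and 1972 and 1984 RPKM at 2 h, above baseline in all 4 libraries, whereas 2 h after the short stress it was at 1100 and 1112 RPKM. This transcript alone held 24.6% of all member reads in the first library 2 h into recovery from the long stress, so the members' read share there (0.776% and 0.769%) rests in part on it.

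The members ranked 186 and 191, each of 318 codons, behaved in the opposite way. For the member ranked 186 the libraries gave 365 and 346 RPKM in unstressed cells, 79.5 and 78.3 RPKM at 500 mOsm and 12.8 and 8.71 RPKM at 600 mOsm. It was at 52.4 and 54.8 RPKM 2 h into recovery from the long stress. The member ranked 191 went from 161 and 163 RPKM in unstressed cells to 23.4 and 24.2 RPKM at that time, the lowest ratio of all members. They have equal coding lengths, and whether reads were divided between similar sequences was not tested.

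**Figure D4:**
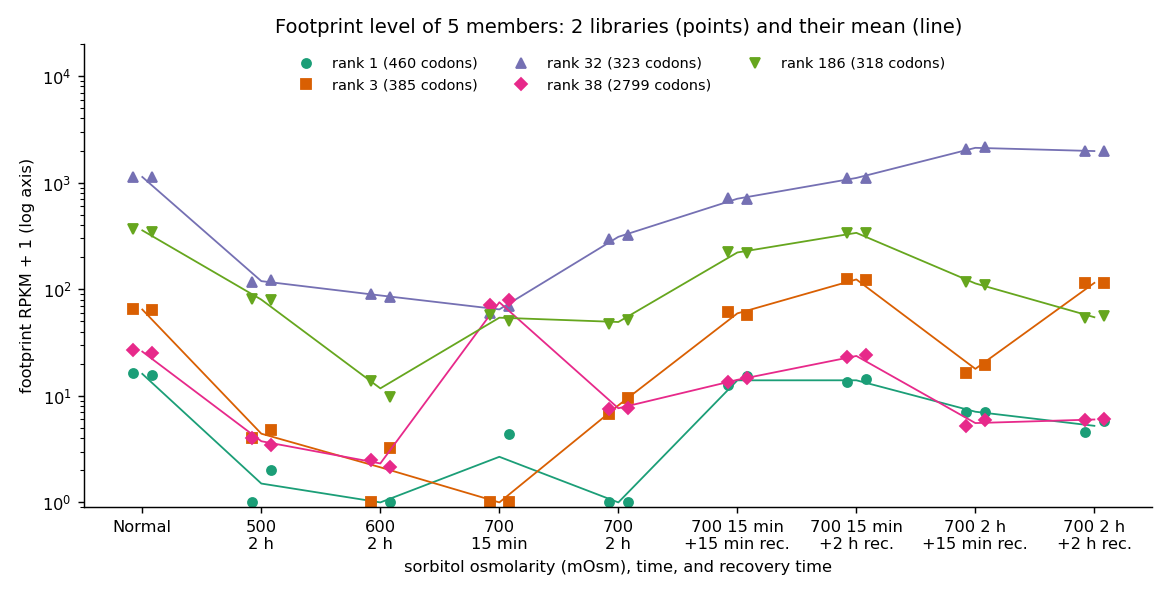
Footprint level (RPKM + 1, log axis) of 5 members in the 9 conditions, with points for the 2 libraries of a condition and a line through their mean. The member ranked 38 peaks after 15 min at 700 mOsm, those ranked 32 and 3 are above baseline 2 h after the long stress, and those ranked 1 and 186 stay below it.

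The member with the lowest ratio, ENSMUST00000200082 of 460 codons, was at 15.5 and 14.6 RPKM in unstressed cells, at 0 and 1.01 at 500 mOsm, and was listed in neither library at 600 mOsm or after 2 h at 700 mOsm. It returned to 12.6 and 13.4 RPKM 2 h after the short stress and to 3.61 and 4.86 RPKM 2 h after the long one. Its RNA was at 34.2 and 45.0 scaled FPKM in unstressed cells and at 41.7 and 45.2 at 500 mOsm (log2 change 0.14, SE 0.104, limma adjusted p = 0.589), so the groups overlapped. It fell after 15 min at 700 mOsm, to 19.6 and 19.8 scaled FPKM (log2 change -0.96), and rose 2 h after the long stress, to 63.5 scaled FPKM in each library (log2 change 0.68, SE 0.0959, limma adjusted p = 8.98e-05). The other low extremes were similar in size, with the 10 lowest ratios spanning 0.0334 to 0.0755.

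A single library stood apart for 1 member. The member ranked 115 had 96 and 9 reads in the 2 libraries made after 2 h at 700 mOsm, or 144 and 10.9 RPKM, against 81.4 and 78.5 RPKM in unstressed cells. Without replicate 2 of that condition 2 members, and not 1, were at least 2-fold higher than in unstressed cells. The member ranked 97, of 522 codons, was the 1 counted, at 30.9 and 23.6 RPKM against 10.2 and 10.8 in unstressed cells.

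The members shared features that the ratio ranking them did not use. Their coding sequences were longer than those of eligible transcripts, with medians of 510 and 410 codons, and the part of the transcript outside the coding sequence was longer too, with medians of 1674 and 1032 nucleotides. No member had up to 100 codons, against 153 eligible transcripts. Eligibility was not blind to coding length, since it required a listing in a shallow footprint library of the strongest stress. A short coding sequence holds fewer reads at a given RPKM, so short transcripts with few footprints were less likely to be eligible. The part of that requirement in the members' coding lengths was not tested. By coding length, members were 0.954% of eligible transcripts up to 200 codons, 2.72% from over 200 to 400, 4.26% from over 400 to 800, 5.06% from over 800 to 1600, and 3.92% beyond. By noncoding length they went from 1.60% of those up to 500 nucleotides to 5.19% of those from over 2000 to 4000.

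Members held few footprints for their RNA already in unstressed cells. Their median baseline was 24.5 RPKM of footprints against 45.1 for eligible transcripts, while their median RNA was 33.3 scaled FPKM against 24.4. The log2 of footprint RPKM over RNA FPKM had a median of -0.27 in members and 1.01 in eligible transcripts. Of the 155 eligible transcripts where it was -1 or lower, 51 (32.9%) were members, and of the 979 where it was over 2, 4 (0.409%) were. The baseline footprints enter the rule as its denominator, so this is a description, with the RNA as its independent side.

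RNA was measured apart from the rule, and all 200 members were listed in it and passed the low-value filter. At 500 mOsm, where every member held fewer footprints than in unstressed cells, the members' RNA had a median of 32.0 and 30.5 scaled FPKM in the 2 libraries, against 32.0 and 33.1 in unstressed cells. In limma with Benjamini-Hochberg adjustment over 9275 transcripts, 10 members fell (background 1.89%) and 3 rose (background 1.55%). The median log2 change of RNA was -0.04 in members and -0.01 in all tested transcripts, and 195 members were within 0.5. That last count was not made over all tested transcripts, but their quartiles were -0.12 and 0.11, so most of them were within 0.5 too. The footprint change lay below the RNA change in all 200. That follows from the choice of members, whose footprint changes were all -1.83 or lower while no RNA change was below -1.40. At 600 mOsm the RNA of 55 members fell (background 9.11%) and of 3 rose (background 3.87%), with a median of -0.14 against 0.00. Without replicate 1 of the unstressed RNA libraries 6 members fell and none rose at 500 mOsm, and 24 fell and none rose at 600 mOsm. Without replicate 2 at 500 mOsm 6 fell and 1 rose there, and without replicate 2 of the unstressed RNA libraries 5 rose at 600 mOsm. Fitted on the compared groups alone, 6 fell and none rose at 500 mOsm and none rose at 600 mOsm, while with equal library weights 24 fell and 11 rose at 500 mOsm and 9 rose at 600 mOsm. Without the low-value filter 6 rose at 500 mOsm and 5 at 600 mOsm.

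At 700 mOsm the members' RNA fell in most cases. After 15 min 142 fell (background 30.5%) and 10 rose (background 19.3%), with a median log2 change of -0.45 against -0.06 for all tested transcripts. The median member was at 23.8 and 23.0 scaled FPKM, against 32.0 and 33.1 in unstressed cells. After 2 h 113 fell (background 31%) and 20 rose (background 18.7%), with a median of -0.43 against -0.05. At both times 101 members fell, which was not counted over all tested transcripts. At least 2-fold lower in RNA after 15 min were 16 members and 179 of 9275 tested transcripts. After 2 h 38 members and 634 of 9275 tested transcripts were. Most falls of members were thus smaller than 2-fold, but the members' share was above that of all tested transcripts at both times. Without replicate 1 of the unstressed RNA libraries 3 rose after 15 min and 9 after 2 h, and without the shallow replicate 2 of the 2 h stress (6851961 reads) 12 rose after 2 h. With equal library weights 31 rose after 2 h, and with FPKM as deposited 12 did.

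The fall in RNA was also more frequent among transcripts with long noncoding parts in general. Up to 500 noncoding nucleotides, 5 of 24 members and 6.57% of eligible transcripts fell after 15 min at 700 mOsm. From over 1000 to 2000, 52 of 62 members and 28.5% of eligible transcripts fell, and beyond 4000, 14 of 17 members and 63.0% did. Within each of the 5 classes the members' share was above that of eligible transcripts. The part of transcript length in the members' result was not tested further.

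During recovery the members' RNA was near its unstressed level. At 15 min after the short stress 7 fell (background 2.59%) and 2 rose (background 4.39%), and the median log2 change was -0.04. At 2 h after the long stress 39 fell (background 8.28%) and 13 rose (background 13.9%), with a median of -0.03 against 0.02 for all tested transcripts. At that time the median member was at 31.4 and 31.5 scaled FPKM. Of the 143 members whose footprints were then at least 2-fold lower, the RNA of 32 fell, of 4 rose and of 107 did neither. The footprint change lay below the RNA change in 199 of 200 members. Neither count was made over eligible transcripts, and the unstressed footprints in both entered the rule. Both counts are therefore descriptions of the members only. Without replicate 1 of the unstressed RNA libraries 2 fell and 6 rose at 2 h after the long stress, and at 15 min after the short stress 3 fell and none rose. At that last time 2 fell and 1 rose without replicate 2 of the unstressed RNA libraries, 4 fell and 1 rose without replicate 2 of the recovery, and 1 rose without replicate 1 of the recovery. Fitted with limma on the compared groups alone, no member fell or rose at 15 min after the short stress, where 32 had an unadjusted p under 0.05, and 18 fell and 8 rose at 2 h after the long stress. With equal library weights 24 fell and 9 rose at 15 min after the short stress, and without the low-value filter 16 fell and 6 rose.

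**Figure D5:**
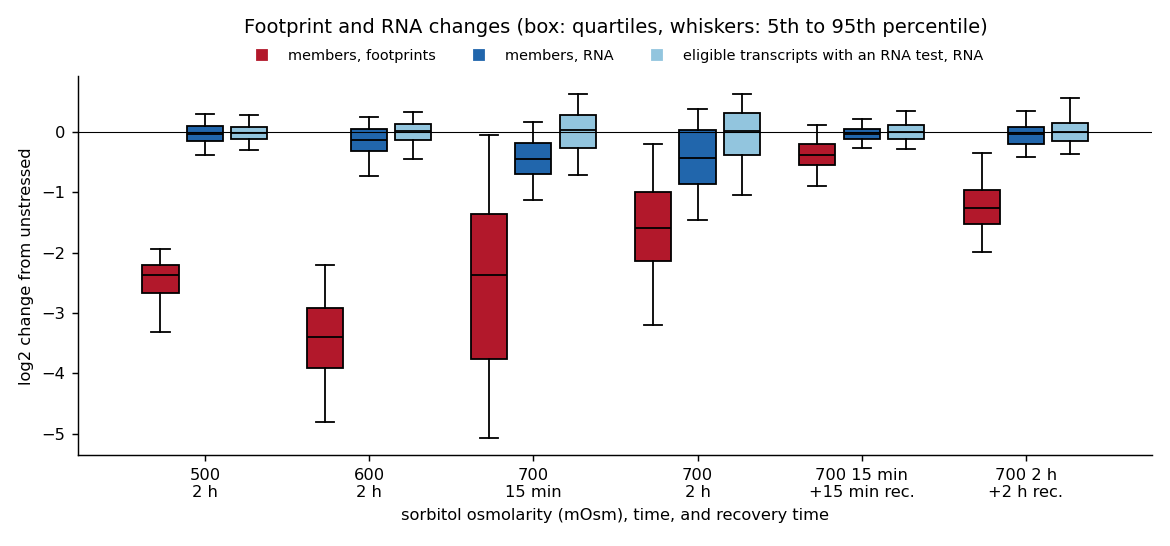
Log2 change from unstressed cells of the members' footprints (red), the members' RNA (dark blue) and the RNA of eligible transcripts with an RNA test (light blue) in the 6 conditions with usable RNA libraries; boxes are quartiles and whiskers the 5th to 95th percentile. The members' RNA medians lie between -0.45 and -0.03 while their footprint medians reach -3.40.

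Footprints per RNA, as the log2 ratio of scaled RPKM + 1 to scaled FPKM + 1, put both measures together. The members' median stood at -0.33 without stress, -2.77 with 500 mOsm and -3.65 with 600 mOsm. For 700 mOsm the medians were -2.56 (15 min) and -1.61 (2 h). It was -0.76 at 15 min after the short stress and -1.59 at 2 h after the long stress. Over eligible transcripts it stayed between 0.35 and 0.90 in these conditions. The members' median was thus below the eligible median in each, by most at 600 mOsm. The footprints of unstressed cells and at 500 mOsm entered the rule, so the ratios there are a description.

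A few members changed strongly in RNA as well. ENSMUST00000038287, ranked 3 and of 385 codons, had footprints of 64.7 and 62.3 RPKM in unstressed cells and of 3.02 and 3.81 RPKM at 500 mOsm. They were unlisted in the first library at 600 mOsm, at 2.27 RPKM in the second, and at 113 and 114 RPKM 2 h after the long stress. Its RNA went from 61.7 ± 2.90 to 22.7 ± 0.945 scaled FPKM at 500 mOsm (mean ± SD, n = 2 each). In limma that was a log2 change of -1.40 (SE 0.0766, adjusted p = 6.17e-09). At 2 h after the long stress its RNA was at 164 ± 3.64 scaled FPKM (n = 2; log2 change 1.39, SE 0.0704, limma adjusted p = 3.81e-10). Of the 10 members whose RNA fell at 500 mOsm, it had the largest log2 change.

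ENSMUST00000060366, ranked 171 and of 485 codons, had the largest fall in RNA of any member at 600 mOsm and after 2 h at 700 mOsm. Its RNA averaged 71.8 ± 0.334 scaled FPKM in unstressed cells, 20.9 ± 0.333 at 600 mOsm and 11.5 ± 1.56 after 2 h at 700 mOsm (mean ± SD, n = 2 each). The limma log2 changes were -1.73 (SE 0.0874, adjusted p = 2.61e-09) and -2.54 (SE 0.0974, adjusted p = 9.63e-11). Its footprints were at 139 and 127 RPKM in unstressed cells, and stress at 500 mOsm gave 29.1 and 27.2 RPKM and at 600 mOsm 7.88 and 10.2 RPKM. They were above baseline 2 h after the short stress, at 197 and 195 RPKM.

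The largest rise in RNA of any member was that of ENSMUST00000095267, ranked 43 and of 342 codons, at 2 h after the long stress. Its RNA was at 6.08 and 9.81 scaled FPKM in unstressed cells and 42.5 and 51.7 there (log2 change 2.45, SE 0.194, limma adjusted p = 1.15e-07), with no overlap between the groups. Its footprints were at 18.6 and 16.3 RPKM in unstressed cells, 1.81 and 2.25 at 500 mOsm, and 24.3 and 24.4 at 2 h after the long stress. The next were the members ranked 3 and 50, with log2 changes of 1.39 and 1.06, and all 3 belonged to the 6 members whose footprints were then at or above baseline.

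RNA and footprints of the members ranked 186 and 191 moved apart after 2 h at 700 mOsm. The RNA of the member ranked 186 was at 1350 and 1585 scaled FPKM in unstressed cells and 2320 and 2378 under that stress (log2 change 0.68, SE 0.0711), and its footprints at 46.4 and 50.1 RPKM were below their baseline of 365 and 346. The RNA of the member ranked 191 had a log2 change of 0.72, the largest rise of any member in that condition.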

How the data were processed

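Deposited footprint lists hold RPKM and RNA lists FPKM per Ensembl transcript, as made by the authors. cutadapt, Bowtie, STAR and the GRCm38 build are the tools and build named in the submitters' processing notes, with no version. The counting step is not given in the sources used here. Members, lists and tests were chosen with earlier results of these data known. Values were solved for library totals, lengths and whole reads (relative tolerance 1e-09), and 99.2% of the coding lengths were multiples of 3. The solver and the RNA test were tested on simulated data. Of 100 transcripts changed by a log2 of 1 in the 500 mOsm comparison 99 were called, of 100 changed by 0.5, 73, with 7 false calls among 9275 transcripts. The simulated spread was the same for all transcripts and conditions. In the data the precision weights ran from 0.32 in unstressed cells to 2.23 at 15 min after the short stress, so these figures hold for the simulated setting only.

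RPKM and FPKM were divided by median-ratio library factors (4619 footprint and 5705 RNA transcripts listed in every library with a mean of at least 10). Footprint changes were called at 2-fold on log2(scaled RPKM + 1). The RNA test was limma 3.58.1 (R 4.3.3) on log2(scaled FPKM + 1), for transcripts with a mean of at least 2, with means of all 9 conditions, group precision weights, a mean-variance trend and Benjamini-Hochberg adjustment at 0.05. RNA replicate numbers did not pair libraries (correlations of deviations -0.307 to 0.308 over 36 pairs of conditions, 6 over 0.1). Members named in the text are the 10 lowest ratios, the 10 highest baselines, the 3 largest RNA rises and falls per comparison and the 5 extremes at 700 mOsm and in late recovery, with at most 4 identifiers printed. Members ranked 25, 38, 55, 63, 174 and 181 were named after their values were seen. Gene lists, cell markers, promoters and proteins were not used, because no table here holds these transcript identifiers. Alternatives covered scaling, pseudocount, filter, weights, replicate block, size of the set, baseline minimum and each library left out. Python 3.11.15 was used.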

Additional observations from a re-analysis of the deposited data

Results flagged for a closer look

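The member ranked 63, of 360 codons, had RNA changes past the threshold in opposite directions at the 2 times of 700 mOsm stress. It was at 42.0 and 48.8 scaled FPKM in unstressed cells, 30.1 and 31.1 after 15 min and 52.3 and 55.1 after 2 h. The log2 changes were -0.55 and 0.24, and the difference between the times was 0.79 (SE 0.0617, limma adjusted p = 8.09e-08). No other member passed in opposite directions, which was not counted over all tested transcripts. In the same contrast between the times the RNA of 71 members was higher after 2 h (background 22.4%) and of 69 lower (background 28.6%). The footprints of the member ranked 63 were at 55.1 and 50.0 RPKM in unstressed cells, unlisted after 15 min and at 7.46 and 13.1 RPKM after 2 h.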

How the results depend on the processing

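For footprints, 85 of 93 counts under other settings, and 66 of 68 with a library left out, were within 1.5 times the reported ones; the well-read restriction and the alternatives for contrasts between stressed conditions were chosen after seeing the data. Those that moved were all counts of few members. At least 2-fold higher were, after 15 min at 700 mOsm, 3.75% of the 400 lowest ratios and 4.88% of well-read members (2% of the 200), and after 2 h at 700 mOsm 1% of the 100 lowest, 0% with a baseline minimum of 20 and 0% of well-read members (0.5% of the 200). At 15 min after the short stress 0.5% with a baseline minimum of 20 were at least 2-fold lower (2% of the 200). At least 2-fold higher were 1% of the 100 lowest at 2 h after the short stress and 0.5% of the 400 lowest at 2 h after the long stress. Leave-one-out counts ran from 1 to 2 for members higher after 2 h at 700 mOsm and from 2 to 5 for members lower at 15 min after the short stress.

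For RNA (members risen, then fallen), 54 of 72 counts under other settings and 29 of 48 with a library left out were within 1.5 times. Without the low-value filter 6 rose at 500 mOsm, 5 at 600 mOsm, and 6 rose with 16 fallen at 15 min after the short stress. With equal weights 11 rose and 24 fell at 500 mOsm, 9 rose at 600 mOsm, 31 rose after 2 h at 700 mOsm, and for 15 min after the short stress 9 rose and 24 fell. With only the compared groups 0 rose and 6 fell at 500 mOsm, 0 rose at 600 mOsm, 0 rose and 0 fell at 15 min after the short stress. There 8 rose and 18 fell at 2 h after the long stress; this fit has fewer libraries. With FPKM as deposited 12 rose after 2 h at 700 mOsm. The cause was not tested for the others. Leave-one-out counts ranged from 0 to 4 risen and 6 to 8 fallen at 500 mOsm, 0 to 5 and 24 to 48 at 600 mOsm, 3 to 8 risen after 15 min and 9 to 18 after 2 h at 700 mOsm, 0 to 1 and 2 to 7 at 15 min after the short stress, and 6 to 12 and 2 to 33 at 2 h after the long stress. Replicate numbers did not pair the libraries. With the replicate block 11 fell at 500 mOsm, 57 at 600 mOsm, 143 after 15 min and 113 after 2 h at 700 mOsm, 8 at 15 min after the short stress and 43 at 2 h after the long stress, and no count moved beyond 1.5 times.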
